A study of Mus musculus with 6 samples.

Results

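An intron ends at a 3' splice site, an AG that usually follows a stretch rich in C and T. Where 2 such sites compete for the same upstream exon, the transcript carries either a long exon, from the upstream site, or a short exon, from the downstream site. The members described here are the alternative 3' splice site events whose sites lie more than 3 nt apart and that had a mean of at least 20 reads over the 6 libraries. They number 3128 of the 4502 events listed, in 2159 genes and at 2928 distinct pairs of sites. A further 585 events with enough reads had sites 3 nt apart or closer, and 789 had too few reads. The choice used distance and reads, not the difference between libraries.

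The libraries hold poly(A) RNA of small intestinal crypt cells from C57BL/6 mice aged 60 days, 3 of the group WT (genotype Ptbp1f/f) and 3 of the group PTBP1_KO (Ptbp1f/f;Vil-creER+/-). Both groups carried floxed Ptbp1 and received tamoxifen at 100 mg/kg in 2 daily injections, with cells taken 20 h after the second, so the groups differ in a Cre under villin regulatory sequence, which is active in intestinal epithelium. Villi were scraped off and crypts were released in 2 mM EDTA and passed through a 70 µm strainer. The study asks what PTBP1 does in regeneration of this epithelium. The deposited splicing table sets 3 libraries against 3 others, called here the first and the second set, and its header ties neither to a genotype, so the splicing differences below have no direction by genotype. The labels do not say whether the samples of a group came from separate animals, so p-values measure only the spread between these samples.

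PTBP1 is an RNA-binding protein that binds stretches of C and U in introns, often beside 3' splice sites, and mostly represses the exons next to them. U2AF, the factor that recruits the spliceosome to a 3' splice site, reads the same kind of stretch and the AG after it. When an extension between the sites is a multiple of 3 in length it adds codons without shifting the reading frame, provided that it holds no stop codon.

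In the gene table, Ptbp1 was listed at 230 FPKM (length- and depth-normalised fragments, 1 value per group) in WT and 123 FPKM in PTBP1_KO, with q = 0.0125 in the authors' deposited table. All 8 epithelial markers were present, with summed levels of 3830 FPKM in WT and 4130 FPKM in PTBP1_KO. The 7 immune cell markers summed to 31.5 FPKM and 49.1 FPKM, with Cd8a called higher in PTBP1_KO by the authors' deposited table, and the 2 Paneth cell markers to 1620 FPKM and 2710 FPKM, with Mmp7 called higher in PTBP1_KO (q = 0.0125 in the authors' deposited table). The 2 enterocyte markers summed to 2690 FPKM and 3020 FPKM, so RNA of differentiated cells was present in the crypt preparations. The 4 markers of crypt stem and dividing cells summed to 713 FPKM and 665 FPKM, with none called in either list. The 2 tuft cell markers summed to 27.9 FPKM and 19.7 FPKM, with none called. The 6 stromal markers summed to 1.54 FPKM and 1 FPKM, with Pdgfra below 0.1 in both. In bulk RNA, fewer cells of a type and less RNA per cell cannot be told apart. Over the members, the libraries held from 2049472 to 2590307 reads each, and the median event had a mean of 191 reads per library.

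Coding extensions of 6 changed events that are described below are shown first, because their letters are what the long form adds. They range in length from 9 to 132 nt and are not the 6 with the largest differences. They are read from GENCODE M21 transcripts (GRCm38, which is mm10), 5′ to 3′ on the transcript strand as DNA letters. Capitals mark the AG that the downstream site uses, which is the end of the extension.
Synj1, 9 nt, chr16:90974067-90974075, minus strand: gctggaaAG
Chd3, 18 nt, chr11:69361225-69361242, minus strand: tcctgggctgtcctgcAG
D930048N14Rik, 19 nt, chr11:51653992-51654010, plus strand: tgttctttccctttaccAG
Pogz, 27 nt, chr3:94864458-94864484, plus strand: ctccctccttcccctctccacctgcAG
Plekha6, 60 nt, chr1:133270000-133270059, plus strand: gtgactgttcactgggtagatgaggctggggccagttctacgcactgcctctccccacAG
Hcfc1, 132 nt, chrX:73948287-73948418, minus strand: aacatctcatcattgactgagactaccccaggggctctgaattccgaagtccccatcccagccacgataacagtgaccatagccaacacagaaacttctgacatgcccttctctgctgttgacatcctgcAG
All 6 extensions lie in coding exons of GENCODE M21. The Synj1 extension is 22.2% C or T, whereas the Pogz extension is 85.2% C or T. The distance is a multiple of 3 in each of these except D930048N14Rik, and none of the 6 holds a stop codon in the frame of the upstream exon.

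For 6 other changed events, whose extensions are longer or lie outside coding sequence, the window of 20 bases before the downstream site and 6 after it is given, with the same AG in capitals.
Celf1, chr2:91016546-91016571, plus strand: tggtttgtttttttttctAGattcct
Celf2, chr2:6545670-6545695, minus strand: ctcccttgttttctccccAGacatct
Ranbp3, chr17:56702743-56702768, plus strand: actctctttcctttttgcAGttccca
Fcsk, chr8:110889735-110889760, minus strand: gcttcttcctcttcccccAGagacag
Dnm1, chr2:32309632-32309657, minus strand: acccttctgcttttccccAGcaggaa
Kcne3, chr7:100182713-100182738, plus strand: acgactctggctgcttccAGatgcac
Of the 20 bases before these downstream sites, C and T made up 85% in Celf2 and Fcsk, 80% in Ranbp3 and Dnm1, 75% in Celf1 and 60% in Kcne3. These 6 are not all the changed events of this kind, and most of the rest had lower shares. The share was 80% in Dhx30, 75% in Mapkapk3, 70% in Abcd4 and 60% in Lrrcc1 and Fam135a. It was 55% in Hdac10 and Pkd1 and 50% in Snx13.

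The long-form level of a library is the share of the long form after reads were divided by the effective length of each form, 144 nt for the short form and 144 nt plus the distance for the long form. An event was called changed when, in the authors' deposited table, the FDR was below 0.05 and the difference in level, first set minus second set, was at least 0.1 in size. Of 3128 members, 36 were changed, or 1.15%, against 1.10% of all 3713 alternative 3' splice site events with enough reads and 0.855% of the 585 with sites 3 nt apart or closer. The members' share is near that background. The 36 events lie in 34 genes and at 35 pairs of sites, with 2 events each in Abcd4 and Plekha6. The long form was higher in the first set in 23 of them (0.735% of members, against 0.673% of all events) and lower in 13 (0.416% against 0.431%). The median absolute difference in the authors' deposited table was 0.011 over all members, 0.012 over all events with enough reads and 0.143 over the changed members.

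**Figure D1:**
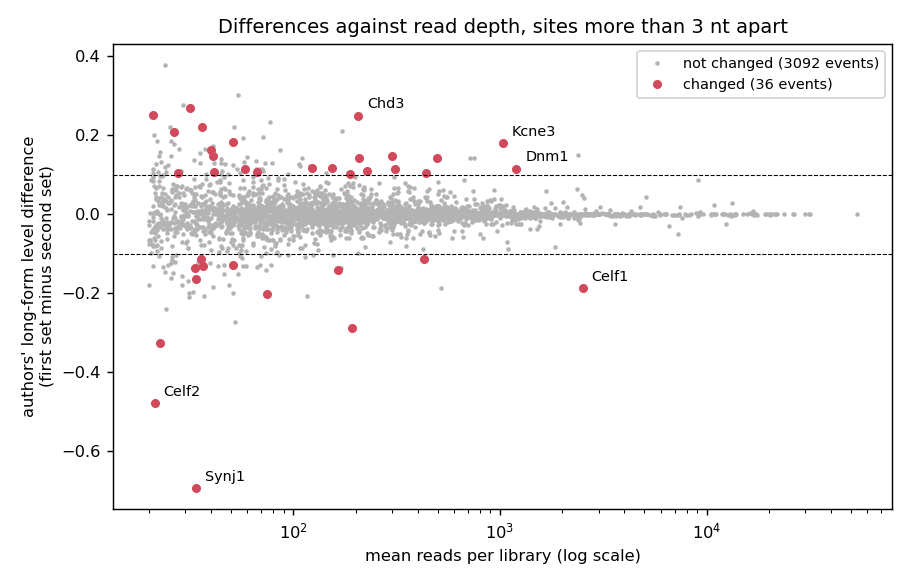
Authors' difference in long-form level (vertical axis, first set minus second set) against the mean reads per library (horizontal axis, log scale) for the 3128 members, with the 36 changed events in red and dashed lines at 0.1 and -0.1. Synj1 and Celf2 lie farthest below 0 at means of 33.7 and 21.3 reads, while Celf1, Dnm1 and Kcne3 passed at means of 1030 reads or more.

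The levels of the 3 libraries of the first set and the 3 of the second did not overlap in 32 of the 36 changed events, and they overlapped in Pkd1, H2-Bl, Dhx30 and Platr25. Over all members, 9.08% had sets that did not overlap, against 8.46% of all events with enough reads and 5.13% of those 3 nt apart or closer. With a difference of at least 0.1 besides, the shares were 1.92%, 1.89% and 1.71%. At FDR below 0.05 without a minimum difference, 96 members passed (3.07%, against 2.85% of all events and 1.71% of those 3 nt apart or closer), 59 with a higher and 37 with a lower long form in the first set. A difference of at least 0.1 was listed for 147 members, and 111 of these did not pass the FDR. The spread at great depth can be read from the 2 deepest members of middling level whose FDR was above 0.5. Their means were 9342 reads in Serbp1 and 10857 reads in Ivns1abp, far above those of most members. Serbp1, an mRNA-binding protein, had levels of 0.54, 0.53 and 0.52 in the first set and 0.54, 0.51 and 0.52 in the second for its 18 nt extension. Ivns1abp, a Kelch family protein, had 0.59, 0.52 and 0.57 against 0.56, 0.50 and 0.56 for a 962 nt extension. The 6 libraries thus spanned 0.031 in Serbp1 and 0.085 in Ivns1abp, and over all members they spanned a median of 0.0512 with quartiles of 0.0191 and 0.116. Members of middling level spanned more. For the 266 with a level from 0.3 to 0.7 in pooled reads, 11 of them changed, the median span was 0.198. Their median depth was 95.2 reads. For the 1430 members at 0.95 or more the median span was 0.0238.

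The 2 largest differences in size lay in Synj1 and Celf2, 1 gene of membrane traffic and 1 regulator of splicing. Synj1 encodes synaptojanin 1, a phosphoinositide phosphatase that helps to uncoat clathrin vesicles. Its 9 nt extension had long-form levels of 0.25, 0.31 and 0.16 in the first set and 0.92, 0.87 and 1 in the second. The sets are far apart, from mostly short to almost only long. The short form had 23, 38 and 39 reads in the first set and 1, 3 and 0 in the second, and 95% Wilson intervals of the levels in the first set reached 0.44 at most while those in the second began at 0.67. The authors' deposited table lists a difference of -0.693 with the FDR given as 0. Synj1 was called on a mean of 33.7 reads, with 14 in the lowest library.

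Celf1 and Celf2 encode related RNA-binding proteins that regulate splicing and the decay of mRNA, and both events lie in 3' untranslated sequence. The long form of Celf1 adds 3075 nt (chr2:91013491-91016565) and had levels of 0.21, 0.25 and 0.21 in the first set and 0.46, 0.33 and 0.44 in the second, at 1550 to 3238 reads per library. The short form of Celf1 had 229, 303 and 351 reads in the first set and 148, 200 and 174 in the second, so fewer short-form reads were seen in each library of the second. The difference in the authors' deposited table was -0.187 with FDR = 1.03e-08. The extension is most of an intron, and the authors' deposited table of retained introns lists -0.185 for the intron at chr2:91013403-91016565. Celf1 reads inside that stretch can enter both events, so the 2 entries are not independent.

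Celf2 adds 1104 nt (chr2:6545676-6546779). Its levels were 0.39, 0.26 and 0.41 in the first set and 1, 0.50 and 1 in the second, with a difference of -0.478 and FDR = 0.00786 in the authors' deposited table. Only 16 short-form reads of Celf2 were seen in all, and the library with the fewest held 5 reads, in which a count of 0 allows a short-form share of reads of up to 60.0%. The 95% Wilson interval in that library ran from 0.13 to 1. An overlapping retained intron was also changed, with -0.362 in the authors' deposited table. Celf2 was listed at 0.851 FPKM in WT and 2.23 FPKM in PTBP1_KO (p = 0.0078 and q = 0.466 in the authors' deposited table). The summed immune cell markers moved in the same direction, from 31.5 to 49.1 FPKM, and their part in the Celf2 event was not tested.

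**Figure D2:**
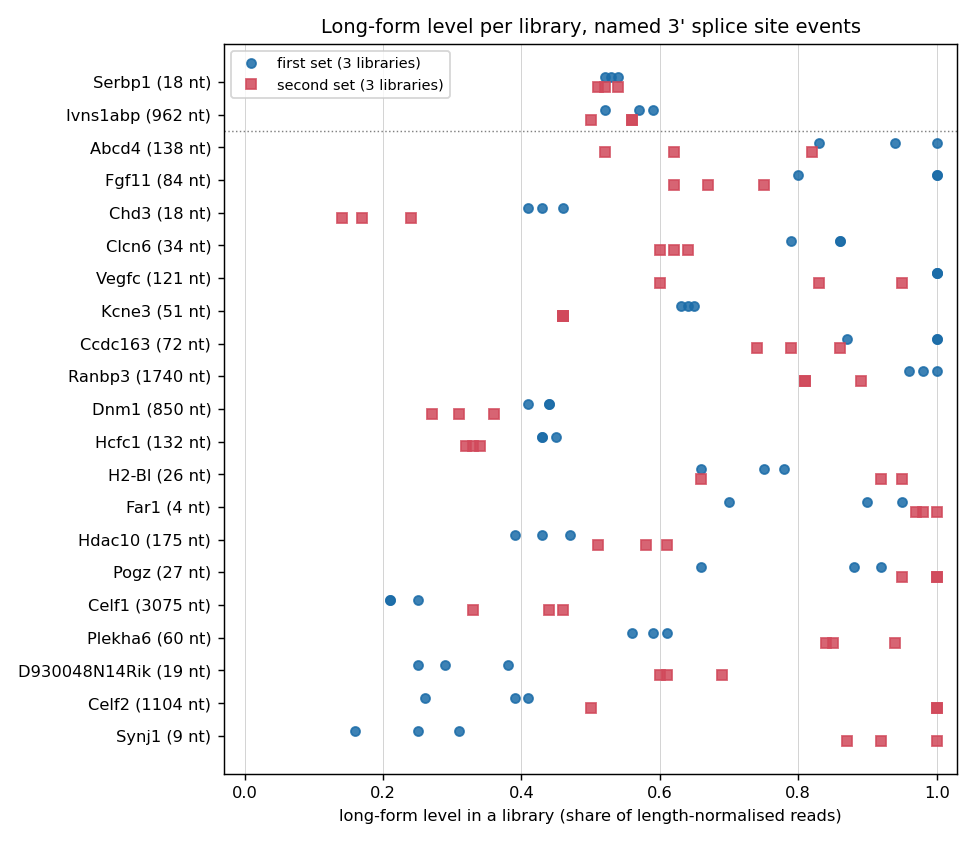
Long-form level (horizontal axis, share of length-normalised reads) in each library of the first set (circles) and the second set (squares), for the 19 changed events named by rule and, above the dotted line, 2 events that were not changed. Synj1, at a mean of 33.7 reads, stands at 0.31 or less in the first set and at 0.87 or more in the second. The libraries of Serbp1, at a mean of 9342 reads, lie within 0.031 of each other.

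Dnm1 encodes dynamin 1, the GTPase that pinches vesicles off membranes. An 850 nt extension (chr2:32309638-32310487) had levels of 0.41, 0.44 and 0.44 in the first set and 0.31, 0.36 and 0.27 in the second. The authors' deposited table lists 0.116 with FDR = 0.000237, on a mean of 1202 reads. The difference fell to 0.095 when the library with 0.27 was left out. Here the overlapping retained intron went the other way, at -0.066 in the authors' deposited table, and a 12 nt skipped exon of Dnm1 was listed at 0.528 in the authors' deposited table.

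Kcne3 encodes a subunit that holds a potassium channel open and supports salt secretion in intestinal crypts. Its 51 nt extension, in 5' untranslated sequence (chr7:100182682-100182732), had levels of 0.64, 0.63 and 0.65 in the first set and 0.46, 0.46 and 0.46 in the second. The libraries of each set lay within 0.02 of each other. The authors' deposited table lists 0.181 with FDR = 2.42e-11, on a mean of 1030 reads, and the value moved only between 0.176 and 0.184 when each library was left out. Skipped exons of Kcne3 were also changed, among them the 91 nt form of the same exon, at 0.267 in the authors' deposited table. Reads of this exon can enter both events, so the entries are not independent. The opposite strand holds Gm34821 at this place, and whether reads were counted by strand is not given in the sources used here.

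Plekha6 encodes a protein with a pleckstrin homology domain. Its 60 nt coding extension had 2 entries, joined to different upstream exons. With one, the levels were 0.59, 0.61 and 0.56 in the first set and 0.94, 0.84 and 0.85 in the second (-0.289, FDR = 8.33e-14 in the authors' deposited table). With the other they were 0.76, 0.75 and 0.72 against 0.92, 0.93 and 0.98 (-0.201, FDR = 4.76e-06 in the authors' deposited table). Both entries of Plekha6 therefore show more of the long form in the second set, and they share the same sites. A 150 nt skipped exon of the same gene was listed at 0.574 in the authors' deposited table.

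Abcd4 encodes a lysosomal transporter needed for vitamin B12 to reach the cytosol. Its 2 events use the same downstream site, with extensions of 138 nt (chr12:84612446-84612583) and 5 nt (chr12:84612446-84612450). The levels of the first were 1, 0.94 and 0.83 in the first set and 0.82, 0.62 and 0.52 in the second (0.269, FDR = 0.0116 in the authors' deposited table). Those of the 5 nt event were 1, 0.98 and 0.96 against 0.91, 0.75 and 0.73 (0.183, FDR = 1.32e-05 in the authors' deposited table). The same 28 short-form reads serve both Abcd4 events, so they are not independent. Overlapping retained introns of Abcd4 were changed in opposite directions. The one at chr12:84612446-84612779 was listed at 0.192 and the one at chr12:84612451-84612779 at -0.174 in the authors' deposited table. Both the 138 nt extension and the short form are annotated only in transcripts marked for nonsense-mediated decay, while the long form of the 5 nt event is annotated in protein-coding transcripts. The windows before the 3 competing AGs of Abcd4 are shown because 2 of them lie 5 nt apart in the same C and T stretch.
Abcd4, site of the 138 nt extension, chr12:84612578-84612603, minus strand: gtcacggatcctgactttAGccaggt
Abcd4, site of the 5 nt extension, chr12:84612445-84612470, minus strand: tccctctctctgcccttcAGcacagg
Abcd4, downstream site, chr12:84612440-84612465, minus strand: ctctctgcccttcagcacAGgctggc

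Clcn6 encodes an endosomal chloride and proton exchanger. Its 34 nt extension had levels of 0.79, 0.86 and 0.86 in the first set and 0.62, 0.64 and 0.60 in the second, with 0.221 and FDR = 0.036 in the authors' deposited table. Vegfc, a growth factor for lymphatic vessels, had 1, 1 and 1 against 0.60, 0.83 and 0.95 for 121 nt (0.209, FDR = 0.0023 in the authors' deposited table). The Vegfc difference rests on 9 short-form reads and was 0.113 without the library at 0.60. Fgf11, an intracellular relative of the fibroblast growth factors, had 0.80, 1 and 1 against 0.75, 0.62 and 0.67 for 84 nt (0.252, FDR = 0.00564 in the authors' deposited table), at a mean of 21 reads, the changed member nearest to the read minimum.

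Chromatin and transcription genes made up another group, assembled after their values were seen, of which some events leaned to the first set and others to the second. Chd3, a helicase of the NuRD chromatin remodelling complex, had levels of 0.46, 0.41 and 0.43 in the first set and 0.17, 0.24 and 0.14 in the second for its 18 nt coding extension. The authors' deposited table lists 0.25 with FDR = 5e-12 for Chd3, on 184 to 233 reads per library. Hcfc1, a coregulator of transcription in the cell cycle, had 0.45, 0.43 and 0.43 against 0.32, 0.33 and 0.34 for its 132 nt coding extension. Each set of Hcfc1 lay within 0.02, but the difference of 0.105 (FDR = 0.00887 in the authors' deposited table) is close to the minimum and was 0.097 without 1 library.

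Hdac10, a deacetylase that acts on polyamines, had 0.47, 0.43 and 0.39 in the first set and 0.58, 0.51 and 0.61 in the second for 175 nt, the other direction from Chd3 and Hcfc1 (-0.140, FDR = 0.0296 in the authors' deposited table). Its intron was also listed as changed in the retained intron table, at -0.108 in the authors' deposited table. Pogz, a zinc finger protein of heterochromatin, had 0.66, 0.88 and 0.92 against 0.95, 1 and 1 (-0.164, FDR = 0.00132 in the authors' deposited table). The difference of Pogz was -0.085 without the library at 0.66.

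Other chromatin and nuclear genes with a higher long form in the first set were Psip1, Baz1a, Ranbp3 and Slx4. Psip1, which tethers proteins to chromatin and has Snapc3 on the opposite strand, was listed at 0.118 in the authors' deposited table for 80 nt, and Baz1a, a subunit of the ACF remodeller, at 0.118 in the authors' deposited table for 86 nt. Ranbp3, a cofactor of nuclear export, had 1, 0.98 and 0.96 against 0.89, 0.81 and 0.81 for 1740 nt (0.144, FDR = 0.000111 in the authors' deposited table). The total of 2976 reads for Ranbp3 holds only 24 of the short form, since most reads fall inside the extension. An overlapping retained intron of Ranbp3 was listed at 0.112 and did not pass (FDR = 0.494 in the authors' deposited table). Slx4, a scaffold for DNA repair nucleases, had 0.14, 0.17 and 0.25 against 0.00, 0.07 and 0.05 for 5 nt (0.147, FDR = 0.00139 in the authors' deposited table), where 0 long-form reads among 37 allow a share of reads of up to 8.11%. In Mysm1, a deubiquitinase of histone H2A, the long form was lower in the first set, at -0.113 in the authors' deposited table.

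H2-Bl, of the major histocompatibility complex class I family, had levels of 0.78, 0.75 and 0.66 in the first set and 0.92, 0.66 and 0.95 in the second for 26 nt (-0.114, FDR = 0.017 in the authors' deposited table). Its reads were 184, 108 and 112 in the first set and 1036, 99 and 1028 in the second, so 1 library of the second set resembled the first in both reads and level, and without the library at 0.95 the difference of H2-Bl was -0.058, and without the library of the second set at 0.66 it was -0.205. Near-identical copies of this family can share reads, which makes the H2-Bl values uncertain. Far1, an enzyme of ether lipid synthesis and the changed member nearest to the distance limit, had 0.90, 0.95 and 0.70 against 0.98, 1 and 0.97 for 4 nt (-0.131, FDR = 0.0014 in the authors' deposited table), with -0.055 left without the library at 0.70. Far1os lies on the opposite strand there.

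A single library set the difference in 2 events. Pkd1, which encodes polycystin 1, had 1, 0.61 and 1 in the first set and 1 in all 3 libraries of the second, and its difference was 0.000 without the library at 0.61 and -0.194 without either of the others of the first set. Dhx30, an RNA helicase, had 1, 1 and 0.97 against 0.68, 1 and 0.96, and 0.007 was left without the library at 0.68, against 0.167 without the library of the second set at 1. Both calls of the authors' deposited table, for Pkd1 (FDR = 0.0447) and Dhx30 (FDR = 0.011), therefore depend on 1 library each.

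D930048N14Rik had 0.29, 0.25 and 0.38 against 0.69, 0.60 and 0.61 for 19 nt (-0.325, FDR = 0.0108 in the authors' deposited table), with 66 long-form and 70 short-form reads in all. Ccdc163 had 0.87, 1 and 1 against 0.86, 0.79 and 0.74 for 72 nt (0.162, FDR = 0.000301 in the authors' deposited table). Snx13, a sorting nexin of endosomes, had 0.28, 0.26 and 0.28 against 0.14, 0.20 and 0.14 for 33 nt. Fcsk, a kinase that salvages fucose, had 0.21, 0.23 and 0.22 against 0.08, 0.11 and 0.16 for 98 nt. The Snx13 and Fcsk events both have the short form as the main one, and the sets do not overlap in either. Their differences of 0.110 and 0.102 are close to the minimum and fell as low as 0.099 and 0.085 with a library left out. Lrrcc1, a centrosome protein, had 0.18, 0.11 and 0.10 against 0.01, 0.02 and 0.01 for 216 nt, so the long form was near its floor in the second set.

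Fam135a had 0.92, 0.95 and 0.95 against 0.74, 0.79 and 0.85 for 588 nt (0.148, FDR = 0.000524 in the authors' deposited table), and Mapkapk3, a stress kinase, 1, 1 and 1 against 0.84, 0.92 and 0.81 for 1277 nt (0.142, FDR = 0.00564 in the authors' deposited table). The Mapkapk3 call rests on 9 short-form reads among 1248, and an overlapping retained intron was listed at 0.002 (FDR = 0.936 in the authors' deposited table). Unc5cl, Ubl7 and Platr25 were listed at 0.108, -0.135 and 0.105 in the authors' deposited table for 32 nt, 7 nt and 9 nt. Over the changed members, 16 of 36 had fewer than 30 reads of the rarer form in all 6 libraries together, as did 1609 of all 3128 members. The count over all members includes those that used 1 site nearly always. In total reads the changed members were shallower, with a median of 62.6 mean reads per library against 191 over all members. A library with fewer than 20 reads occurred in 27.8% of changed members and 7.83% of all members.

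**Figure D3:**
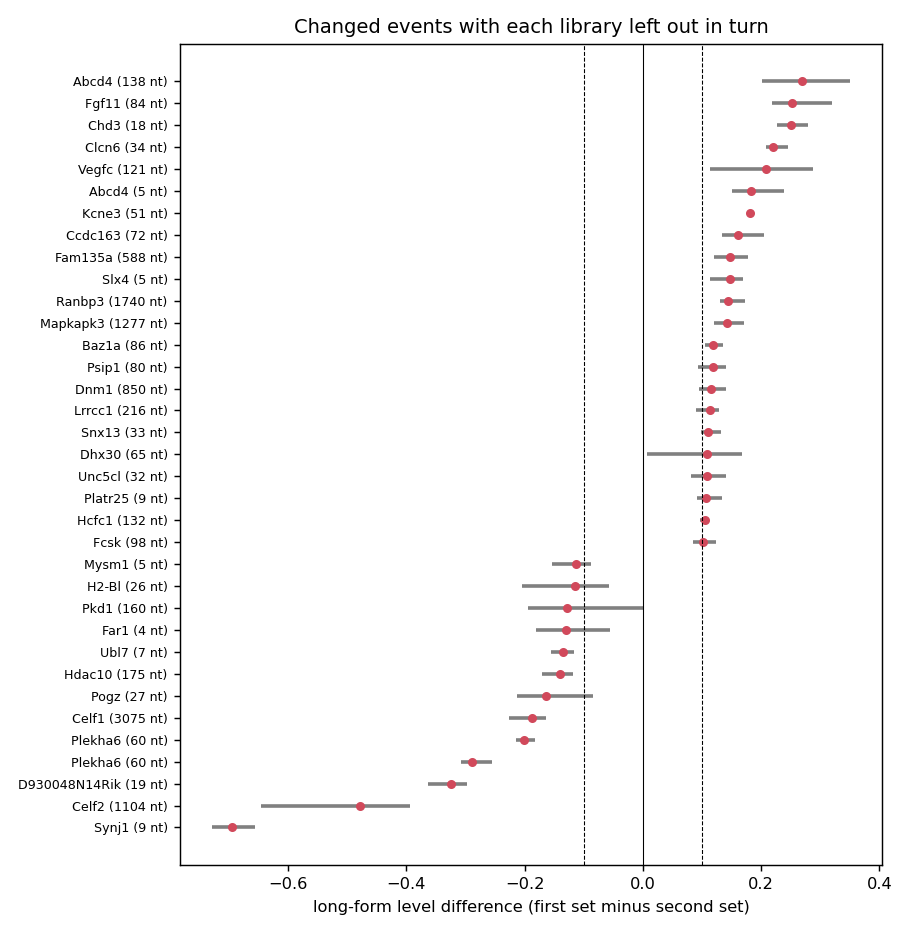
Difference in long-form level recomputed for 35 of the 36 changed events (red points) with the lowest and highest value when each of the 6 libraries was left out (grey lines). Dashed lines mark 0.1 and -0.1. None of those shown changed sign, Pkd1 and Dhx30 came down to 0.000 and 0.007, and Kcne3 stayed between 0.176 and 0.184.

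The distance between sites was 53 nt at the median, with quartiles of 21 and 126 nt and a longest of 7347 nt. Extensions of 4 nt (133 events) and 5 nt (94 events) were the most frequent lengths, above 63 events at 6 nt and 22 at 7 nt. From 9 to 36 nt, each multiple of 3 held more events than both neighbouring lengths, with 57 events at 12 nt against 16 at 11 nt and 17 at 13 nt, 59 at 15 nt against 15 at 14 nt, and 63 at 21 nt against 28 at 20 nt. Multiples of 3 made up 57.7% of events at 7 to 12 nt, 48.0% at 13 to 30 nt, 38.6% at 31 to 100 nt and 34.2% above 300 nt. Only 21.7% of events at 4 to 6 nt had such a length, all of them at 6 nt. Of the changed members 18 of 36 had a multiple of 3, or 50%, against 38.9% of all members. These groups are unlike in level, since all changed members had a level from 0.05 to 0.95 in pooled reads. Over members, multiples of 3 made up 42.7% at levels from 0.05 to 0.3, 54.1% from 0.3 to 0.7 and 36.5% from 0.7 to 0.95. They made up 35.7% at 0.95 or more and 39.5% below 0.05.

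The level also varied with distance. The pooled long-form level, from reads summed over the 6 libraries, had a median of 0.973 at 4 to 6 nt, 0.941 at 7 to 12 nt, 0.415 at 13 to 30 nt, 0.890 at 31 to 100 nt and 0.978 above 300 nt. The upstream site was therefore the main one in 89.7% of events at 4 to 6 nt but in 48.3% at 13 to 30 nt. The number changed was 4 of 290 at 4 to 6 nt, 3 of 163 at 7 to 12 nt, 4 of 633 at 13 to 30 nt, 13 of 1085 at 31 to 100 nt, 6 of 562 above 100 and up to 300 nt and 6 of 395 above 300 nt. The long form was higher in the first set in 23 of the 36 changed events, and in 11 of 13 at 31 to 100 nt. The other 2 there are the Plekha6 entries, which share 1 pair of sites. Higher and lower counts were 2 and 2 at 4 to 6 nt, 1 and 2 at 7 to 12 nt and 1 and 3 at 13 to 30 nt. They were 4 and 2 in each of the 2 classes above 100 nt. The counts are small, and a link between direction and distance was not tested.

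**Figure D4:**
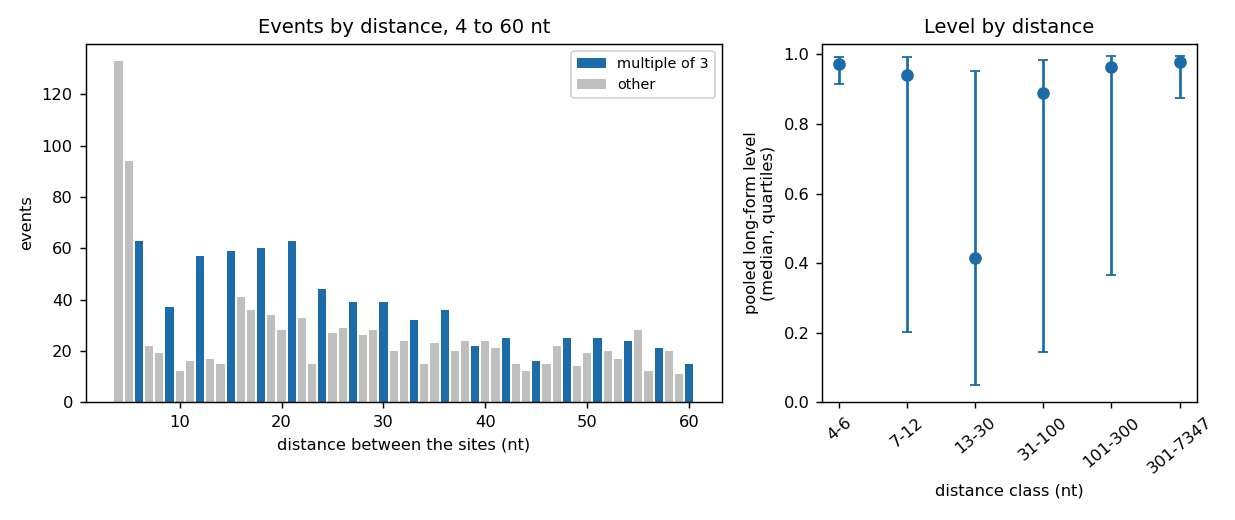
Left, number of events (vertical axis) at each distance from 4 to 60 nt, with multiples of 3 in blue and other distances in grey. Right, pooled long-form level (median with quartiles) in 6 distance classes, which is lowest, at 0.415, for 13 to 30 nt.

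Most members used 1 of the sites nearly always. The pooled level was 0.95 or more in 1430 members and below 0.05 in 403, and no changed event lay in either class, where a difference of 0.1 is hard to reach. Changed events made up 11 of 266 members with a level from 0.3 to 0.7 (4.14%), 20 of 556 from 0.7 to 0.95 (3.60%) and 5 of 473 from 0.05 to 0.3 (1.06%). Just inside the distance limit, 133 members at 4 nt had a median level of 0.980 and 1 changed event, and just outside it 559 events at 3 nt had 0.731 and 5. Events with a mean of 15 to 20 reads numbered 100, of which 1 passed the FDR and difference limits, against 3 of 110 with 20 to 25 reads.

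Sequence before the downstream site was read for 2446 of 2928 pairs of sites from transcripts that span it, and the intron ended in AG in 2445. The pyrimidines C and T made up a median of 70.0% of the last 20 intron bases at 27 changed pairs (quartiles 60% and 75%) and 65.0% at 1558 unchanged pairs (quartiles 55.0% and 70.0%). Unchanged pairs are those with a difference under 0.02 in size and FDR over 0.5. The ranges overlap widely, and no test was run. Pairs were kept apart when either site differed, so a downstream window shared by several pairs counts for each, as in Abcd4. The longest unbroken run of C and T in the last 50 bases was 10 at the median over 22 changed pairs, against 7 over 1237 unchanged pairs and 7 over 821 pairs that were not changed although their pooled level lay from 0.05 to 0.95.

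The letters TCTT, a core of sequences bound by PTB proteins, were found on the transcript strand in the last 50 bases of 12 of 22 changed pairs (54.5%), 458 of 1237 unchanged pairs (37.0%) and 744 of all 1951 pairs read (38.1%). CTCTCT was found in 4 of 22 (18.2%), 72 of 1237 (5.82%) and 122 of 1951 (6.25%), and a match to one motif can overlap a match to the other. Both changed pairs of Abcd4 have the same downstream window, which holds CTCTCT and counts for each of them. The reverse complements AAGA and AGAGAG were found in 219 (11.2%) and 20 of the 1951 and in none of the 22. These are matches of letters in a window, not measured binding. The window at the upstream site could be read at only 6 changed pairs.

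The extension lay in coding sequence for 23 of 35 changed pairs (65.7%) and 2086 of 2928 pairs in all (71.2%). Transcripts marked for nonsense-mediated decay carried it in 4 changed pairs (11.4%) and 414 of all (14.1%), 5' untranslated sequence in 3 and 177, and 3' untranslated sequence, in Celf1 and Celf2, in 2 and 13. Where the downstream site begins coding sequence and the distance is a multiple of 3, the extension held a stop codon in frame in 2 of 13 changed pairs and 240 of 1004 pairs in all (23.9%).

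Gene lists give the same events by function, and their counts of changed events stand beside 1.15% of all members, a share at which lists of this size would hold few or none, so nothing is read from them. Of 60 splicing regulators, 28 had a member event, 48 in all, of which Celf1 and Celf2 were changed, both with a lower long form in the first set. Of 30 genes of 3' splice site recognition, 7 had 12 events and none was changed, with U2af1l4, a relative of a U2AF subunit, alone at FDR below 0.05 in the authors' deposited table. Among 46 membrane traffic genes, 14 had 17 events, with Synj1 lower and Dnm1 higher in the first set. In this list 4 events, all in Synj1 and Dnm1, had FDR below 0.05 in the authors' deposited table. Of all members 3.07% did. Neither the 14 events of adhesion and cytoskeleton genes nor the 9 of cell cycle and DNA repair genes included a changed one. Among these only 1 event, in Tpm1, had FDR below 0.05 in the authors' deposited table. The median absolute difference was 0.0075, 0.0085, 0.010, 0.017 and 0.022 in these 5 lists, against 0.011 over all members.

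Levels of the host genes were compared between WT and PTBP1_KO. Among 34 genes with a changed event, all tested, H2-Bl alone passed q < 0.05 in the authors' deposited table, with 93.6 FPKM in WT and, in PTBP1_KO, 24.1 FPKM. That is 2.94% of the 34, against 0.537% of the 15460 genes tested and 0.325% of the 2153 tested genes with a member. At an unadjusted p below 0.05, 4 of the 34 passed (11.8%, against 1.9% of genes with a member and 4.35% of all tested genes), among them H2-Bl, Celf2 and Clcn6. For Synj1 the levels were 17.7 FPKM in WT and 18.2 FPKM in PTBP1_KO, for Kcne3 158 FPKM and 128 FPKM (p = 0.0646 in the authors' deposited table), and for Chd3 82.7 FPKM and 71.0 FPKM (p = 0.331 in the authors' deposited table). Changed skipped exons were found in 6 of the 29 genes with a changed member that were tested for them (20.7%, against 6.69% of 1988 genes with any member), namely Abcd4, Dnm1, Fam135a, H2-Bl, Kcne3 and Plekha6. In Kcne3 they include the long and the short form of the exon described above, so reads can be shared. Changed retained introns were found in 4 of 11 (36.4%, against 3.14% of 860), namely Abcd4, Celf1, Celf2 and Hdac10, and in each of them the retained intron holds the extension, so reads can be shared. A skipped exon or retained intron that is measured in the same libraries is no separate replicate.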

How the data were processed

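The authors processed the reads with bcl2fastq 2.20, Trimmomatic 0.38 and STAR 2.6.1d against mm10, and gene levels with Cufflinks and Cuffdiff, per the submitters' processing notes. The splicing caller is not given in the sources used here. Per the file headers, the splicing tables hold read counts of each form for 3 libraries of 2 sets, effective lengths, a p-value, an FDR and a level difference, the authors' score for an event. The deposited gene table holds 1 FPKM value per group, a log2 fold change, a p-value and a q-value, all made by the authors.

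Long-form levels were recomputed per library from counts and lengths and differed from the authors' differences by at most 0.00112. Because the header names no genotype, no model of WT against PTBP1_KO was fitted. No library was dropped. The 2 columns of deposited levels per library in each table were not used. Intervals are 95% Wilson intervals for counting error only, as are limits from 3 counts at 0.

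All 2159 member genes matched GENCODE M21 by identifier, 2103 with the version. Without a genome, sequence came from transcripts that span a window in 1 exon. Named events followed a rule: the 7 largest differences of each sign, the 4 with most reads, changed members of 5 gene lists, the members nearest the limits and 2 references. Other changed events were named after their values were seen. Counts include 1 changed event that is not reported here by name. The members and lists were chosen with earlier results of these data known. Python 3.11.15, numpy 2.4.6, pandas 2.3.3 and matplotlib 3.10.9 were used, and the level computation was tested on simulated data.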

Additional observations from a re-analysis of the deposited data

How the results depend on the processing

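Of the 36 changed events, 25 kept FDR below 0.01. The count was 71 with a difference of at least 0.05, 10 with at least 0.2, 21 with a mean of 50 reads, 96 with FDR alone, and 23 with only the deepest event of each gene. It was 26 with 20 reads in every library, 40 with a mean of 10 reads, 29 above 12 nt, 31 without events in an intron with a changed retained intron, and 32 with sets that did not overlap. Each of these settings only adds or drops events. FDR alone, the retained intron and overlap settings and the comparison with pairs of middling level were chosen after the data were seen. Leaving out each library in turn gave 30 to 40 changed events, with the authors' FDR kept. The difference fell below 0.1 without some library in 15 of the 36 events and stayed at 0.1 or more in the other 21, and no sign changed. Of 19 events named by rule, 17 to 19 stayed when each library was left out, 9 had a mean of 50 reads and 9 a difference of at least 0.2. The median span of the 6 libraries was 0.0400 without form lengths and 0.0453 with 20 reads in every library. Changed pairs exceeded the comparison pairs by 5 percentage points of pyrimidine in 20 bases, whichever comparison events were used. In such a window 5 points are 1 base, so getting the same gap each time says little. In 50 bases changed pairs exceeded unchanged pairs by 3 points, with a median of 61% against 58%. The median in 50 bases was 60% in pairs of middling level that were not changed. Host genes numbered 1 at q < 0.05 and 4 at an unadjusted p below 0.05. No paired analysis was possible because the splicing columns carry no replicate numbers of the groups. Depth limits the events with few reads of the rarer form most.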
